A study of Homo sapiens with 3 samples.

Results

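Histone lysine methyltransferases and demethylases add methyl groups to, and remove them from, lysines in the histone tails. Here 41 genes for these enzymes and for core subunits of their complexes were followed in 2 neuroblastoma cell lines and a pool of cancer cell lines. The genes came from a fixed list. A probe set of the array was counted for a gene when its annotation names that gene alone, under the current or an earlier symbol. On this rule 40 of the 41 genes were measured, by 132 probe sets, out of 19775 genes measured in all, and ASH1L, an H3K36 methyltransferase, was not analysed here. Of the 40 genes, 32 had several probe sets and 8 had 1 (SETD1A, SETD1B, SMYD3, ASH2L, SUV39H1, EZH2, KDM1A and KDM2B). NGP is an untreated neuroblastoma line with amplified MYCN, an amplified 12q24.31 segment and a loss of distal 11q. IMR-32 is an untreated neuroblastoma line with amplified MYCN and a loss of 1p. The third sample, the Reference, was mRNA pooled from 16 cancer cell lines, with no treatment described. The lines of the pool are not named, so whether neuroblastoma lines are among them is not known. NGP and IMR-32 were grown in different media, and each sample was hybridized to 1 Affymetrix array. The copy number changes are those of the study and the copy number arrays were not analysed here.

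Methylation of H3K4 and H3K36 marks promoters and bodies of transcribed genes, that of H3K9 and H3K27 marks repressed chromatin, and that of H4K20 is tied to mitosis and chromatin compaction. These marks are written by enzymes with a SET domain, and H3K79 methylation by DOT1L, which has none. The demethylases followed here are a flavin-dependent amine oxidase (KDM1A) and Jumonji-domain oxygenases. In neuroblastoma, a tumour of the sympathetic lineage, EZH2 and LSD1 (the KDM1A protein) are known as enzymes that hold back differentiation genes. KDM2B, a Jumonji demethylase of H3K36 with a zinc finger that binds unmethylated CpG DNA, brings a variant Polycomb complex (PRC1.1) to CpG islands. SETD1B is a catalytic subunit of a COMPASS complex that methylates H3K4, and KMT5A (earlier SETD8) is the H4K20 monomethyltransferase.

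The values are signals of the MAS5 algorithm on a linear scale, made by the authors, with a trimmed mean of 500 on each array. The array medians were 98.8 in NGP, 89.9 in IMR-32 and 119 in the Reference, and 95, 98 and 92 of the 132 probe sets lay at or above the median on these 3 arrays. A ratio is the log2 of 2 signals of the same probe set, and a gene's ratio is the median over its probe sets. Signals of different genes were not set against each other, since probe sets differ in brightness for the same amount of RNA. After the study's methods, the highest 7% of gene ratios in a comparison were called overexpressed and the lowest 7% underexpressed. The limits were 1.84 and -2.88 for NGP over the Reference, 1.68 and -2.83 for IMR-32 over the Reference, and 1.95 and -1.84 for NGP over IMR-32. A probe set is named dim in a comparison where the higher of its 2 signals lay below the median of its array. Since each sample had 1 array, differences could not be checked against replicates and carry no p-value. The standard deviation between probe sets of the same gene over all genes was 1.41 for NGP over the Reference, 1.31 for IMR-32 over the Reference and 1.28 for NGP over IMR-32. Over the 32 followed genes with several probe sets it was 1.14, 0.96 and 1.03. It shows how far probe sets of a gene disagree, and holds no spread between arrays or cultures. In a pool, high expression in few lines and low expression in many cannot be told apart.

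As a check on the samples, 8 of 9 measured sympathoadrenal markers were overexpressed in NGP and 5 of 9 in IMR-32 (median log2 ratio over the Reference 3.15 in NGP, 1.99 in IMR-32). TH, the enzyme that starts catecholamine synthesis, had signals of 4379 in NGP, 103 in IMR-32 and 271 in the Reference, so that this defining marker was near the array median in IMR-32. The 6 epithelial markers were underexpressed in both lines, with summed signals of 307 in NGP, 404 in IMR-32 and 66783 in the Reference. Of 4 haematopoietic markers 1 (LCP1) was underexpressed in each line, and of 4 melanocytic markers 1 (PMEL) was overexpressed in NGP. The part of this difference in cell type in the ratios over the Reference was not tested, and the comparison of NGP with IMR-32 does not involve the pool. Of 10 proliferation genes, MCM6 was overexpressed in NGP (1.88), and their median ratios were 0.52 for NGP over the Reference, 0.53 for IMR-32 over the Reference and -0.01 for NGP over IMR-32.

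Most of the 40 genes differed little between the samples. In NGP over the Reference 28 of 40 lay within 2-fold (57.5% of all genes did), in IMR-32 over the Reference 33 (58.7%), and in NGP over IMR-32 32 (66.9%). The median log2 ratio of the 40 was 0.26 in NGP over the Reference, 0.16 in IMR-32 over the Reference and 0.09 in NGP over IMR-32, beside -0.22, -0.23 and 0.02 over all genes. With the brightest probe set of each gene the median in NGP over IMR-32 was -0.06. Their middle ratios (quartiles) ran from -0.16 to 0.97 in NGP and from -0.20 to 0.70 in IMR-32, both over the Reference, where those of all genes ran from -1.10 to 0.54 and from -1.09 to 0.52. Above 0 lay 28 of the 40 in NGP (42.3% of all genes), 25 in IMR-32 (41.6%) and 24 in NGP over IMR-32 (50.8%). The 3 comparisons share arrays by pairs and are not independent of each other.

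**Figure D1:**
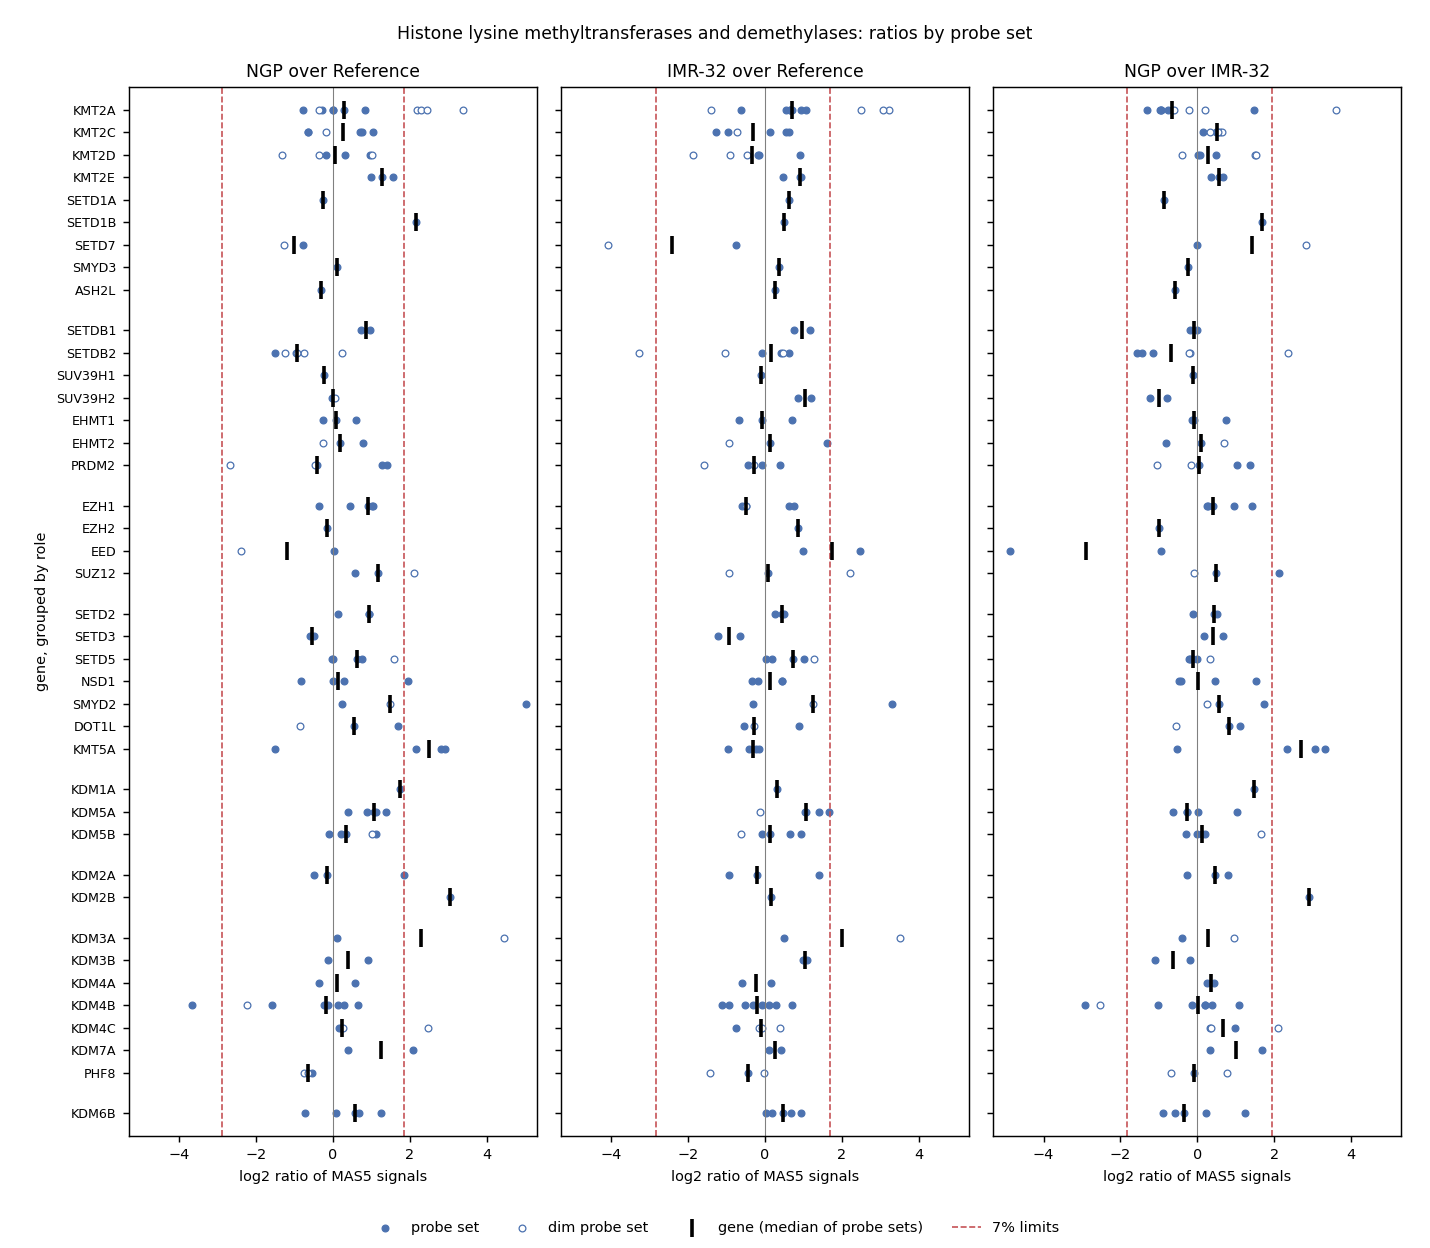
Log2 ratio of MAS5 signals (horizontal axes) for each probe set of the 40 measured genes, grouped by role down the page, in NGP over Reference, IMR-32 over Reference and NGP over IMR-32. Filled points are probe sets with the higher signal at or above its array median, open points are dim ones, black bars are gene medians and dashed lines are the 7% limits, past which lie 4 gene medians in NGP over Reference, 2 in IMR-32 over Reference and 3 in NGP over IMR-32.

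Few of the genes passed the 7% limits, which take in 7.0% of all genes at each end of a comparison. In NGP over the Reference 4 of 40 were overexpressed (KDM2B, KMT5A, KDM3A and SETD1B) and 0 underexpressed. In IMR-32 over the Reference 2 were overexpressed (KDM3A and EED) and 0 underexpressed. In NGP over IMR-32 KDM2B and KMT5A passed the upper limit and EED the lower one. By a plain 2-fold rule, 10 of 40 (25.0%) were higher in NGP than in the Reference, where 15.4% of all genes were, and 2 (SETD7 and EED, 5.0%) were lower, where 27.1% were. In IMR-32 over the Reference 6 (15.0%) were higher, where 14.4% of all genes were, and 1 (SETD7, 2.5%) was lower, where 26.9% were. In NGP over IMR-32 5 (12.5%) were higher and 3 (7.5%) lower, against 17.2% and 15.9% of all genes.

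The same counts were made without dim probe sets, which left the 40 genes and 14196, 14118 and 13350 genes in all. Past 2-fold then lay 10 higher (25.0%) and 1 lower (SETDB2, 2.5%) in NGP over the Reference, against 15.7% and 26.4% of all genes, and 5 higher (12.5%) and 0 lower in IMR-32 over the Reference, against 14.9% and 25.3%. In NGP over IMR-32 7 were higher (KMT5A, SETD1B, SUZ12, PRDM2, SMYD2, KDM1A and KDM2B, 17.5%) and 4 lower (SETDB2, SUV39H2, EZH2 and EED, 10.0%), against 14.5% and 14.3%. With or without dim probe sets, the share of the 40 genes below -1 in a line over the Reference was smaller than that of all genes, and the share above 1 in NGP was larger. These shares carry no test, and the 132 probe sets were brighter than most, with 69.7% to 74.2% of them at or above the array medians. Among the genes above 1 in NGP over the Reference were KDM2B, SETD1B and KMT5A, in or at the edge of the amplified 12q24.31 segment.

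KDM2B, SETD1B and KMT5A were ranked 1, 4 and 2 of the 40 genes in NGP over the Reference, and 1, 3 and 2 in NGP over IMR-32. Their ranks in IMR-32 over the Reference were 21, 13 and 35. The signal of KDM2B was 21619 in NGP, 2920 in IMR-32 and 2634 in the Reference. It was high in NGP alone, at 8.21-fold the Reference (log2 3.04) and 7.40-fold IMR-32 (2.89), while the other samples differed by 0.15. The signal of SETD1B was 4591 in NGP, 1431 in IMR-32 and 1017 in the Reference. Its log2 ratio was 2.17 over the Reference and 1.68 over IMR-32, with the value over IMR-32 below the upper limit of 1.95. SETD1B thus passed the 7% rule against the pool and not against IMR-32, from which it differed 3.21-fold.

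KMT5A, which the study's 12q24.31 segment borders at its distal edge, had 4 probe sets. Their signals were 19678, 4938, 2809 and 340 in NGP, 1967, 597, 559 and 489 in IMR-32, and 2603, 706, 622 and 959 in the Reference, in the same order of probe sets. In 3 of them NGP was the highest sample, with log2 ratios over IMR-32 of 3.32, 3.05 and 2.33. In the 1 that remained NGP was the lowest, with -0.52 over IMR-32 and -1.49 over the Reference. The gene's median was 2.69 over IMR-32 and 2.49 over the Reference, and IMR-32 lay at -0.32. The pair of probe sets with the highest ratios, and the lone probe sets of KDM2B, KDM1A and EZH2, are of the _s_at type, which can pick up several transcripts of like sequence. Without that type KMT5A was at 0.90 over IMR-32 and at 0.34 over the Reference, and KDM2B had no value.

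**Figure D2:**
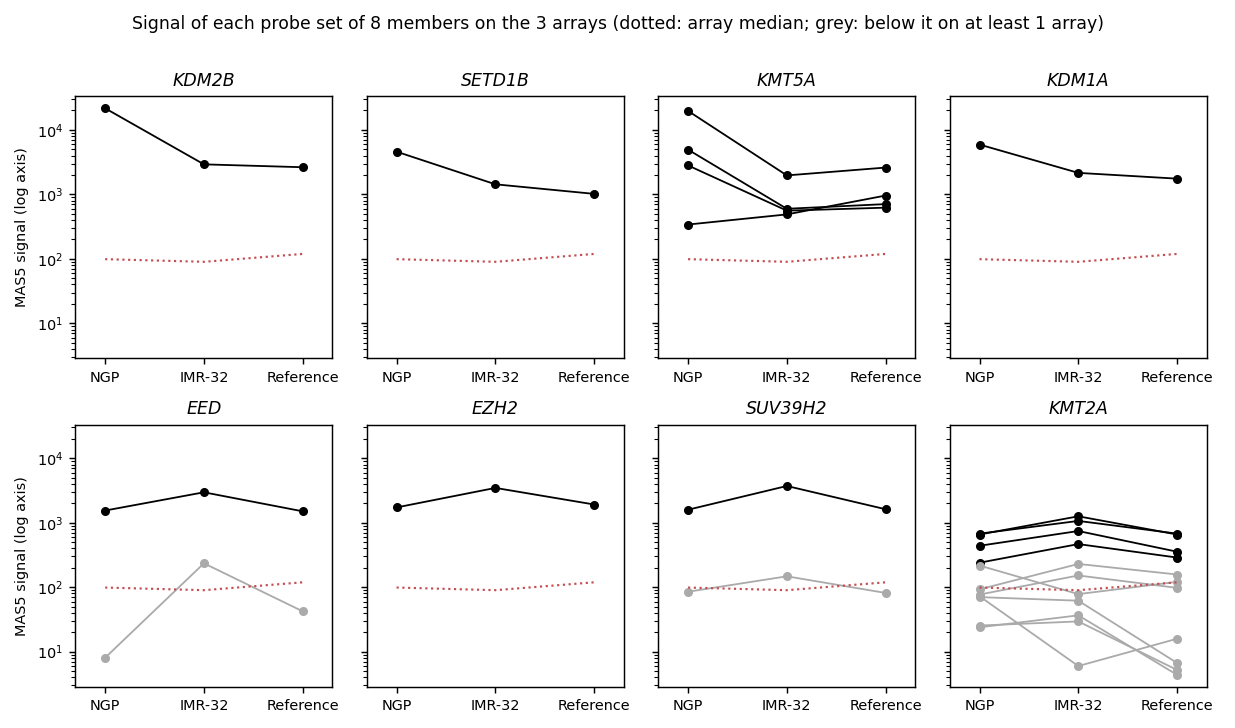
MAS5 signal (log axis) of each probe set of KDM2B, SETD1B, KMT5A, KDM1A, EED, EZH2, SUV39H2 and KMT2A on the NGP, IMR-32 and Reference arrays, with lines joining the values of a probe set. Black marks probe sets at or above the array median (dotted red line) on the 3 arrays and grey marks the others. KDM2B, SETD1B, KDM1A and 3 of 4 KMT5A probe sets peak in NGP, and EED, EZH2, SUV39H2 and the 4 black KMT2A probe sets peak in IMR-32.

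The promoters of KDM2B and KMT5A are shown because both genes passed the limits in NGP against both other samples, and that of KDM4C because it holds the motif CACGTG at 2 places. They are RefSeq sequences of GRCh38.p14, from 250 bases before to 50 bases after the start site, 5′ to 3′ on the gene's strand, with CACGTG in capitals. The KDM2B window, which belongs to 1 of 4 listed start sites, is chr12:121580974-121581273 on the minus strand and the KMT5A window, of 1 of 2 start sites, is chr12:123383882-123384181 on the plus strand. The KDM4C window is chr9:6757723-6758022 on the plus strand.
KDM2B: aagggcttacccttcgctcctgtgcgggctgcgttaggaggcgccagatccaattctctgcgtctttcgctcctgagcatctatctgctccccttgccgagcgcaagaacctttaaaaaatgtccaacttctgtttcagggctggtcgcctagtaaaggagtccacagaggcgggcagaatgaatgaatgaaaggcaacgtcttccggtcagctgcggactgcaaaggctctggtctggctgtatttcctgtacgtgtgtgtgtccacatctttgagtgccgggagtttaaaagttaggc
KMT5A: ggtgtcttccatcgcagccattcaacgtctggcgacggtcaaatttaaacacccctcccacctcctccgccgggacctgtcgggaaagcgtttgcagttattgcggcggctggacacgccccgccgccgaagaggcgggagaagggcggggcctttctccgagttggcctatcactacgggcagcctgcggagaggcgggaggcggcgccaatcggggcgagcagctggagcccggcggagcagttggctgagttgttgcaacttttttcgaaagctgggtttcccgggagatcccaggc
KDM4C: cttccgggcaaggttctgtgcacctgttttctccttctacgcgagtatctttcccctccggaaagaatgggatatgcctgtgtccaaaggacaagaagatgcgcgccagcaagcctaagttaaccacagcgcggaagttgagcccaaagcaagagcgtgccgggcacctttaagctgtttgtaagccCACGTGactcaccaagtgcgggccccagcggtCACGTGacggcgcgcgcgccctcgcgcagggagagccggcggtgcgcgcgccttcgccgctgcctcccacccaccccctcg
The KDM2B window had 15 CpG dinucleotides, the KMT5A window 28 and the KDM4C window 29, while the windows of the other start sites had 15, 33 and 46 for KDM2B and 42 for KMT5A. The median over 57 promoters of 38 of the 41 genes was 30 CpG, beside 14 over all promoters of the table. CACGTG, which is its own reverse complement and is the E-box that MYC family proteins bind, was searched because MYCN is amplified in both lines. It was found in 7 of the 57 promoters (12.3%, in EHMT2, KDM4B, KDM4C, KMT2D, NSD1 and SETDB1), in 1796 of 21490 promoters of measured genes (8.36%) and in 2548 of all 35116 (7.26%). The ratios of these 6 genes in the lines over the Reference lay between -0.33 and 0.95. A match is a string of letters and not a shown binding site.

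The 12q24.31 genes around the 3 members were read in the gene order of the RefSeq table. From KDM2B to KMT5A lay 39 measured genes, with a median ratio of 2.59 in NGP over IMR-32, 36 of them above 0 and 28 past the upper limit, and a median of 2.37 in NGP over the Reference, with 27 past it. Their median in IMR-32 over the Reference was -0.17. KDM2B (2.89) and KMT5A (2.69) lay near this median of 2.59 and SETD1B (1.68) below it. Near KDM2B, ANAPC5, a subunit of the anaphase-promoting complex, was at 3.29, RNF34 at 2.45, ORAI1, a calcium channel, at 2.28 and MORN3 at 0.23. Near SETD1B the ratios were also uneven, with PSMD9 at 3.65, TMEM120B at 3.12, CFAP251 at 1.22 and RHOF at 0.82. Before KMT5A, CDK2AP1 was at 1.60, MTRFR at 3.21 and SBNO1 at 3.29.

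Past KMT5A the ratios of NGP over IMR-32 changed sign. Of the 10 measured genes that follow it, 0 lay above 0 in NGP over IMR-32, with a median of -0.72 and a range from -1.33 (RILPL1) to -0.21 (DNAH10). Over the Reference their median was 0.12 in NGP, with 6 above 0, and 0.65 in IMR-32, with 8 above 0. Of the 10 genes that precede KDM2B, 5 passed the upper limit in NGP over IMR-32 and 8 lay above 0, with a median of 1.89. Their median in NGP over the Reference was 0.21, with 4 past the upper limit. KMT5A was the last of the genes read here with a ratio of NGP over IMR-32 above 0. On chromosome 12 as a whole, KDM2B was ranked 58 of 1036 measured genes in NGP over IMR-32, KMT5A 67 and SETD1B 140.

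**Figure D3:**
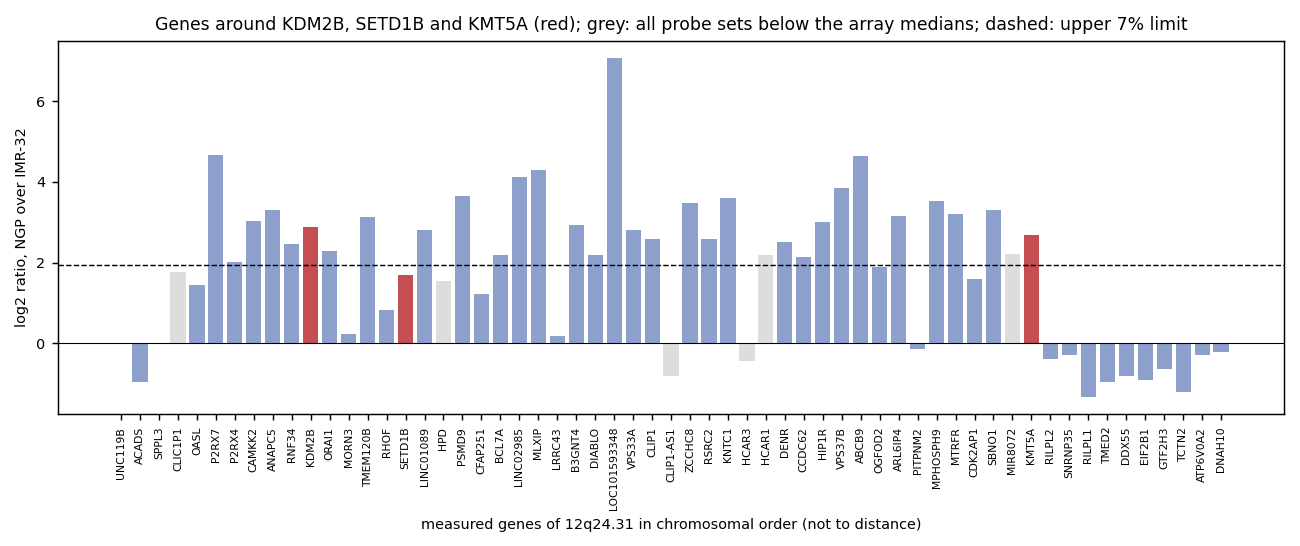
Log2 ratio of NGP over IMR-32 (vertical axis, gene medians) of 59 measured genes of 12q24.31 in chromosomal order, with no distances shown. KDM2B (2.89), SETD1B (1.68) and KMT5A (2.69) are red, grey bars are genes whose probe sets were all dim, and the dashed line is the upper limit of 1.95. The 10 genes to the right of KMT5A lie below 0.

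Of the H3K4 methyltransferases and their subunits, SETD1B and KMT2E were more than 2-fold higher in NGP than in the Reference, 1 of 9 (SETD7) was lower in each line, and 0 of 9 passed a limit in IMR-32. The median ratio of the 9 was 0.11 in NGP over the Reference, 0.36 in IMR-32 over the Reference and 0.27 in NGP over IMR-32. KMT2E, an MLL family protein with a degenerate SET domain that reads H3K4 methylation, had signals of 1751, 1230 and 1058 in NGP, 1099, 839 and 826 in IMR-32 and 590, 612 and 434 in the Reference. The 3 probe sets followed the same order of samples, with a gene ratio of 1.28 in NGP and 0.90 in IMR-32 over the Reference. SETD1A, the paralogue of SETD1B in the sister COMPASS complex, had signals of 145 in NGP, 266 in IMR-32 and 174 in the Reference. Its ratio of NGP over IMR-32 was -0.88, which is 2.56 below that of SETD1B.

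KMT2A, the MLL1 enzyme that keeps HOX genes active, lies in the lost distal part of 11q in NGP. Its 4 probe sets at or above the median on the 3 arrays had signals of 657, 677, 439 and 240 in NGP, 1258, 1067, 744 and 466 in IMR-32, and 656, 678, 355 and 288 in the Reference. NGP was below IMR-32 in all 4, with ratios from -0.96 to -0.66, and within 0.31 of the Reference. The other 7 probe sets of KMT2A ran from -1.31 to 3.60 in NGP over IMR-32, the highest of them dim on every array, and the gene's median was -0.66. KMT2C and KMT2D, which place H3K4 monomethylation at enhancers, differed by less, with ratios of 0.52 and 0.27 for NGP over IMR-32. The brightest probe set of KMT2C had signals of 1887 in NGP, 1722 in IMR-32 and 1111 in the Reference, and that of KMT2D 2265, 2165 and 1158.

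SETD7, which monomethylates H3K4 and many other proteins, was below the Reference in both lines on both of its probe sets. The bright one had signals of 2481 in NGP, 2500 in IMR-32 and 4218 in the Reference, and the dim one 43.7, 6.15 and 105. Over the Reference, the gene's values of -1.01 (NGP) and -2.42 (IMR-32) average these unlike probe sets, and the bright one alone gave -0.77 and -0.75. Its ratio of 1.41 in NGP over IMR-32 came from the dim probe set (2.83), with -0.01 in the bright one. SMYD3, a SET and MYND domain enzyme, and ASH2L, a shared COMPASS subunit without a SET domain, each had 1 probe set. Their signals were 2337 and 2128 in NGP, 2791 and 3190 in IMR-32, and 2172 and 2646 in the Reference, ratios of -0.26 and -0.58 for NGP over IMR-32.

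None of the 7 H3K9 methyltransferases passed a 7% limit in the 3 comparisons, and their median ratio was 0.02 in NGP over the Reference, 0.12 in IMR-32 over the Reference and -0.10 in NGP over IMR-32. SUV39H2, which trimethylates H3K9 in heterochromatin, was highest in IMR-32. Its bright probe set had signals of 1591 in NGP, 3715 in IMR-32 and 1619 in the Reference, and the other 85.0, 148 and 81.4, so that NGP and the Reference were alike and IMR-32 was above both. The gene's ratio was -1.01 for NGP over IMR-32 and 1.03 for IMR-32 over the Reference. Its paralogue SUV39H1 had 591 in NGP, 643 in IMR-32 and 692 in the Reference, which differ by at most 0.23 on the log2 scale. EHMT2 (G9a), the main H3K9 dimethyltransferase of active chromatin, had signals of 1628 in NGP, 2881 in IMR-32 and 946 in the Reference on its brightest probe set and 237, 224 and 205 on the next, and a gene ratio of 0.08 for NGP over IMR-32. Its partner EHMT1 (GLP) was at -0.09.

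SETDB1, which silences retroelements with the KAP1 corepressor, was higher in both lines than in the pool on both of its probe sets. The signals were 1916 and 453 in NGP, 2194 and 455 in IMR-32, and 980 and 271 in the Reference, and the gene ratios 0.85 in NGP and 0.95 in IMR-32. SETDB2 was measured by 6 weak probe sets, of which the first 3 by mean signal had 73.1, 71.8 and 64.8 in NGP, 198, 213 and 144 in IMR-32, and 207, 138 and 109 in the Reference. NGP was the lowest sample in these 3, with ratios from -1.57 to -1.15 over IMR-32, below a gene median of -0.69 that includes a probe set at 2.34. PRDM2 (RIZ), an H3K9 methyltransferase with a PR domain, lies in the lost segment of 1p in IMR-32. Its brightest probe sets had 2200 and 343 in NGP, 857 and 169 in IMR-32, and 905 and 129 in the Reference, ratios of 1.36 and 1.02 for NGP over IMR-32. Its 3 other probe sets lay between -1.06 and 0.05, and the gene's median was 0.05.

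The core of PRC2, the complex that methylates H3K27, differed between the lines in its members. EZH2, the catalytic subunit of dividing cells, had signals of 1727 in NGP, 3468 in IMR-32 and 1917 in the Reference. It was higher in IMR-32 alone, with ratios of -1.01 for NGP over IMR-32, -0.15 for NGP over the Reference and 0.85 for IMR-32 over the Reference. EED, the subunit that binds trimethylated H3K27, had 1545 in NGP, 2966 in IMR-32 and 1503 in the Reference on its bright probe set, and 8.05, 235 and 42.2 on the other. IMR-32 was the highest sample in both. The gene's ratio of -2.90 for NGP over IMR-32 was the lowest among the 40 genes, and it averaged -0.94 in the bright probe set and -4.87 in the other, whose NGP signal lay far below the array median. With the brightest probe set alone EED passed no limit.

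SUZ12, the scaffold subunit of PRC2, went the other way. Its bright probe set had signals of 5053 in NGP, 3587 in IMR-32 and 3404 in the Reference, and the gene's ratio was 0.49 for NGP over IMR-32. Its other probe sets had 145 and 74.1 in NGP, 33.7 and 78.1 in IMR-32, and 64.8 and 17.0 in the Reference, and the gene ratio of 1.17 for NGP over the Reference drew on these weak signals. EZH1, the catalytic subunit of resting cells, had 1330 in NGP, 1091 in IMR-32 and 647 in the Reference on its brightest probe set and 972, 735 and 478 on the next, and its gene ratio was 0.40 for NGP over IMR-32. EZH2 was thus 1.41 below EZH1 on the log2 scale in that comparison. Over the 4 genes the median was -0.30 for NGP over IMR-32, with 2 more than 2-fold lower (15.9% of all genes were). These were EZH2, close to the 2-fold limit at -1.01, and EED, which was at -0.94 on its bright probe set. Among the proliferation genes MCM2 (-0.94) and MKI67 (-0.51) were also lower in NGP than in IMR-32, while RRM2 (0.74) and MCM6 (0.66) were higher, and the part of proliferation in the PRC2 values was not tested.

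Of the 7 measured methyltransferases of H3K36, H3K79 and H4K20, 6 lay above 0 in NGP over the Reference (42.3% of all genes did). In NGP over IMR-32 6 did (50.8% of all genes). The medians of the 7 were 0.62 and 0.44, and KMT5A alone passed a 7% limit. Their median in IMR-32 over the Reference was 0.13. SETD2, the enzyme that trimethylates H3K36 and travels with RNA polymerase II, had signals of 2301, 1158 and 213 in NGP, 1701, 815 and 230 in IMR-32, and 1201, 602 and 193 in the Reference. The brighter pair of probe sets ran in the order NGP, IMR-32, Reference and the third was highest in IMR-32, with a gene ratio of 0.94 for NGP and 0.44 for IMR-32 over the Reference. SETD5, a SET domain protein, had 4330 in NGP, 4682 in IMR-32 and 2810 in the Reference on its brightest probe set, with gene ratios of 0.62 and 0.74. SETD3, a methyltransferase of actin that was first described for H3K36, was below the Reference in both lines, with 1503 in NGP, 1337 in IMR-32 and 2101 in the Reference on its bright probe set and gene ratios of -0.53 and -0.94.

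DOT1L, the H3K79 methyltransferase, was higher in NGP than in IMR-32 on both of its bright probe sets. Their signals were 995 and 837 in NGP, 462 and 472 in IMR-32, and 674 and 256 in the Reference, and the gene's ratio was 0.83 for NGP over IMR-32 and 0.56 for NGP over the Reference. NSD1, an H3K36 dimethyltransferase, was level, at 0.15 in NGP and 0.13 in IMR-32 over the Reference, although 1 of its 4 probe sets had 372 in NGP, 129 in IMR-32 and 95.6 in the Reference. SMYD2, a SET and MYND domain enzyme that also methylates p53, was at 1.48 in NGP and 1.24 in IMR-32 over the Reference by its gene median. Its bright probe set gave a different picture, with 3597 in NGP, 2430 in IMR-32 and 3034 in the Reference, while the next had 403, 122 and 12.4.

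The H3K4 demethylases were above the Reference in both lines, 3 of 3, with medians of 1.07 in NGP and 0.30 in IMR-32. Of all genes 42.3% lay above the Reference in NGP and 41.6% in IMR-32. KDM1A (LSD1), which removes mono- and dimethylation of H3K4 within the CoREST complex, had signals of 5919 in NGP, 2153 in IMR-32 and 1752 in the Reference. It was high in NGP alone, with ratios of 1.76 (3.38-fold) over the Reference and 1.46 (2.75-fold) over IMR-32, both short of the 7% limits. KDM1A lies in the lost segment of 1p in IMR-32, where IMR-32 was 0.30 above the Reference. KDM4A, an H3K9 and H3K36 demethylase of the same segment, had 556 and 386 in NGP, 411 and 326 in IMR-32, and 369 and 493 in the Reference, with gene ratios of 0.34 for NGP over IMR-32 and -0.22 for IMR-32 over the Reference. The 3 followed genes of that 1p segment, with PRDM2, thus lay between -0.28 and 0.30 in IMR-32 over the Reference. Other genes, those of the partner lists included, were not sorted by that segment, so these values do not describe it as a whole.

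KDM5A, which removes trimethylation of H3K4 and was found as a partner of the retinoblastoma protein, was higher in both lines than in the pool. On its 4 brightest probe sets the signals were 789, 615, 443 and 303 in NGP, 1232, 737, 539 and 302 in IMR-32, and 599, 235, 203 and 145 in the Reference, so that the Reference was the lowest sample in each. The gene ratios were 1.07 in NGP and 1.06 in IMR-32, about 2-fold. Its paralogue KDM5B was level, at 0.36 and 0.12, with 1364 and 1455 in NGP, 1370 and 1352 in IMR-32, and 1449 and 1243 in the Reference on its 2 brightest probe sets, of which the first was highest in the Reference.

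KDM2A, the H3K36 demethylase most like KDM2B, had signals of 752, 745 and 423 in NGP, 914, 431 and 310 in IMR-32, and 1047, 829 and 117 in the Reference. Its gene ratio was 0.45 for NGP over IMR-32 and -0.15 for NGP over the Reference, which are 2.44 and 3.19 below those of KDM2B. In IMR-32 over the Reference KDM2B was 0.34 above KDM2A. SETD1B and SETD1A differed by 2.56 for NGP over IMR-32 and by -0.12 for IMR-32 over the Reference, so that in both pairs the paralogue from 12q24.31 was the higher in NGP. In the 6 pairs with no gene there, the difference for NGP over IMR-32 was -1.41 for EZH2 less EZH1, 0.92 for KDM3A less KDM3B, -0.89 for SUV39H2 less SUV39H1, -0.37 for KDM5A less KDM5B, 0.25 for KMT2C less KMT2D and 0.17 for EHMT2 less EHMT1.

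Of the 7 demethylases grouped under H3K9, with or without H3K36, KDM3A was called overexpressed in both lines. It was at 2.28 in NGP and 2.01 in IMR-32, but its probe sets disagreed. The bright one had signals of 1596 in NGP, 2107 in IMR-32 and 1485 in the Reference, a difference of 0.10 and 0.51 from the pool, and the dim one 62.9, 32.5 and 2.85. Without the dim probe set KDM3A was not called. KDM3B, its paralogue, had 1288 and 1474 in NGP, 2773 and 1671 in IMR-32, and 1403 and 779 in the Reference, and IMR-32 was the highest sample in both probe sets. The gene ratios were 1.04 for IMR-32 over the Reference and -0.64 for NGP over IMR-32. KDM7A, a Jumonji enzyme with a PHD finger, had 1209 and 137 in NGP, 381 and 110 in IMR-32, and 286 and 103 in the Reference. NGP was the highest sample in both, with gene ratios of 1.24 over the Reference and 0.99 over IMR-32.

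The other demethylases differed by less than 2-fold at the gene level. KDM4B, with 8 probe sets, lay at -0.18 in NGP and -0.20 in IMR-32 over the Reference, and had signals of 1583 in NGP, 1758 in IMR-32 and 1862 in the Reference on its brightest probe set. Its weak probe sets ran down to -3.65 in NGP over the Reference. KDM4C had 492 in NGP, 248 in IMR-32 and 421 in the Reference on its brightest probe set, and gene ratios of 0.67 for NGP over IMR-32 and 0.25 for NGP over the Reference. PHF8, a demethylase gene of the X chromosome, had 386 in NGP, 414 in IMR-32 and 562 in the Reference, with a gene ratio of -0.10 for NGP over IMR-32. KDM6B (JMJD3), an H3K27 demethylase, had 638, 482 and 298 in NGP, 956, 902 and 379 in IMR-32, and 598, 794 and 199 in the Reference on 3 of its 5 probe sets. These were lower in NGP than in IMR-32 in each. The other probe sets had 274 and 252 in NGP, 234 and 108 in IMR-32, and 171 and 105 in the Reference, higher in NGP than in IMR-32 in both, and the gene ratio was -0.35 for NGP over IMR-32.

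Partners and relatives of the enzymes were taken from fixed lists. Of 8 measured PRC1.1 subunits, the complex that KDM2B brings to CpG islands, 0 passed a limit in NGP over the Reference or in NGP over IMR-32, where their medians were 0.73 and -0.04. In IMR-32 over the Reference PCGF1, the Polycomb ring finger protein of that complex, was overexpressed (1.69), as was YAF2 (1.88). The probe sets of PCGF1 were at 1.61 and 1.77 there, while those of YAF2 disagreed, at 0.51 and 3.26. RYBP, the paralogue of YAF2, had signals of 4768 in NGP, 2176 in IMR-32 and 1873 in the Reference. BCOR was above the Reference in both lines, at 1.48 in NGP and 1.42 in IMR-32. None of 12 COMPASS and MLL subunits passed a limit in the 3 comparisons. Their medians were 0.15, 0.04 and 0.01 for NGP over the Reference, IMR-32 over the Reference and NGP over IMR-32. In NGP over IMR-32, 3 of the 12 were more than 2-fold higher and 0 lower (17.2% and 15.9% of all genes were). These were RBBP5 (1.15), BOD1L1 (1.01, and 1.42 without dim probe sets) and NCOA6. NCOA6 was at 1.87 with a dim probe set (3.61) and at 0.13 without it.

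Of 9 PRC2 accessory subunits, MTF2, a Polycomb-like protein that targets PRC2 to CpG islands, was overexpressed in IMR-32 (1.99) and was at 1.51 in NGP. The medians of the 9 over the Reference were -0.09 in NGP and 0.33 in IMR-32. JARID2 and AEBP2, the pair that defines a form of PRC2, were more than 2-fold lower in NGP than in IMR-32, at -1.07 and -1.25, and JARID2 was at -0.56 without dim probe sets. Of 11 LSD1-CoREST subunits, the neural corepressor RCOR2 was overexpressed in IMR-32 (3.19) and was at 1.73 in NGP, with signals of 241 in NGP, 661 in IMR-32 and 72.7 in the Reference. HDAC1, a deacetylase of that complex, was below the Reference in both lines, with 3408 in NGP, 1683 in IMR-32 and 8298 in the Reference. HDAC2, of the same list, was above the Reference, at 0.59 in NGP and 1.22 in IMR-32. GFI1, with 1 probe set that was dim, passed the upper limit in NGP over IMR-32 (2.09), and the median of the 11 was 0.18 there. None of 8 partners of H3K9 methylation passed a limit, and their medians over the Reference were 0.53 in NGP and 0.49 in IMR-32.

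Among 16 further lysine methyltransferases, MECOM, a zinc finger protein with a PR domain, passed a limit, beside a median of 0.18 for the 16 in NGP over IMR-32. Its brightest probe set had 1510 in NGP, 12.3 in IMR-32 and 296 in the Reference, and its gene ratio was 3.59 for NGP over IMR-32, with 2.27 to 6.94 across its probe sets. Among 10 further demethylases, HR (hairless) and KDM8 were overexpressed in NGP, at 3.10 and 2.05 over the Reference, and without dim probe sets KDM8 was at 1.77 and not called. RIOX2, a ribosomal oxygenase, was underexpressed in NGP over IMR-32 (-2.84), with 328 in NGP, 2944 in IMR-32 and 2726 in the Reference on its brightest probe set. Its probe sets ran from -4.27 to 1.24 in that comparison, and the median of the 10 was -0.19.

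**Figure D4:**
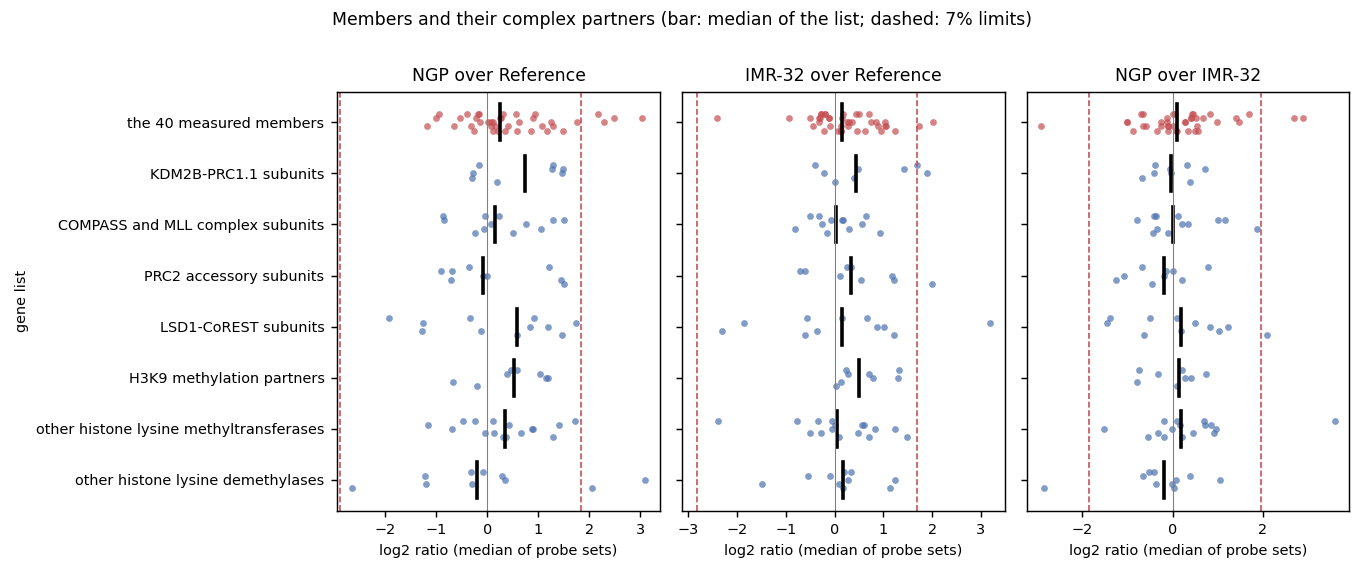
Log2 ratios (gene medians, horizontal axes) of the 40 measured genes (red) and of 7 lists of partner and related genes (blue) in NGP over Reference, IMR-32 over Reference and NGP over IMR-32, with a black bar at the median of each list and dashed lines at the 7% limits. The PRC1.1 subunits have medians of 0.73, 0.43 and -0.04 in the 3 comparisons, and no COMPASS or H3K9 partner gene lies past a limit.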

How the data were processed

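Messenger RNA of NGP, IMR-32 and the Reference pool was measured on 1 Affymetrix U133 Plus 2.0 array each. The values are signal intensities deposited by the authors, who ran MAS5 through affy, a Bioconductor package (its version is not stated in the text or labels used). Each of the 3 arrays holds 54675 probe sets with a mean of 500 when the highest and lowest 2% are left out. After removal of 62 control probe sets, 41091 probe sets with 1 gene symbol in the array annotation were used, while 1801 with several and 11721 without a symbol were not (41037 matched by gene ID to the RefSeq gene table of GRCh38.p14, which gave current symbols and gene order).

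Log2 ratios were taken per probe set with no pseudocount, and a gene had the median over its probe sets. MAS5 subtracts mismatch signals, so that ratios of weak probe sets spread widely. Genes within the top or bottom 7% were called, and a 2-fold rule was applied beside it. The named genes were all 40 measured members, the 12q24.31 neighbours, and genes of the other lists past a limit with the higher signal at or above its array median. RYBP, BCOR, RBBP5, BOD1L1, NCOA6, JARID2, AEBP2, HDAC1, HDAC2, GFI1 and the proliferation genes other than MCM6 were named after their values were seen. The members and lists were chosen with earlier results of these data known. Samples were grouped by the cell line in the labels, and the number of arrays limits the precision. The 9 alternatives were limits of 5% and 10%, quantile normalization, centring on the median, a pseudocount of 32, removal of dim or of _s_at and _x_at probe sets, and the mean or the brightest probe set in place of the median. The calling was run on a simulated array with planted changes and less noise than the spread between probe sets. That run checked only that planted genes were called, and it does not measure false calls. Protein identities of paralogues were not computed. Python 3.11.15, numpy 2.4.6, pandas 2.3.3 and matplotlib 3.10.9 were used.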

Additional observations from a re-analysis of the deposited data

Results flagged for a closer look

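KMT5A was above the Reference in NGP (2.49 on the log2 scale) and below it in IMR-32 (-0.32), a difference of 2.69 for NGP over IMR-32. EED was below the Reference in NGP (-1.18) and above it in IMR-32 (1.73), a difference of -2.90. These genes were picked out because the lines lay on opposite sides of the pool and differed past a 7% limit. The differences between the lines were not tested, since each line has 1 array. In KMT5A 3 of 4 probe sets carried the difference between the lines, and in EED both did, at -0.94 and -4.87. The place of EED below the pool in NGP came from its weak probe set alone. That probe set was dim in NGP over the Reference (-2.39), and the bright one was at 0.04. Without the dim probe set EED did not lie on opposite sides of the pool.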

How the results depend on the processing

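With 1 array per sample, precision is limited by the number of arrays and, for weak probe sets, by signals near background. No paired analysis was possible because each group has 1 sample. Of the 9 alternatives, the brightest probe set turned the sign of the median of the 40 genes in NGP over IMR-32 (-0.06 in place of 0.09). No other median of the 40 changed sign. Nor did a ratio of EED, KDM2B, KDM3A, KMT5A or SETD1B in a comparison where that gene was called. Elsewhere signs did turn without dim probe sets, for EED in NGP over the Reference (-1.18 to 0.04) and KDM3A in NGP over IMR-32 (0.28 to -0.40). Of the values for all 40 genes together 92 stayed close to those reported and 25 moved. A count could stay close while the genes in it changed.

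The median of the 40 genes moved to 0.48 in NGP and 0.39 in IMR-32 over the Reference with median-centred ratios, to 0.33 in IMR-32 with the brightest probe set, and to 0.27 in NGP over IMR-32 with the mean over probe sets. Centring sets the median of all genes to 0 by construction.

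For overexpressed genes in NGP over the Reference (4), leaving out _s_at and _x_at probe sets, which removes 9 of the genes, gave 2 (SETD1B and SMYD2). The count stayed at 4 with other names in 3 cases. SMYD2 replaced KDM3A without dim probe sets, KDM7A replaced KDM3A with the brightest probe set, and SMYD2 replaced KMT5A with the mean. With log2(signal + 32) 5 were called, with KMT2E and KDM1A and without KDM3A. A 10% limit gave 6, with SMYD2 and KDM1A added. In IMR-32 over the Reference (2), 1 was called with quantile-normalized arrays (KDM3A), with log2(signal + 32) or without dim probe sets (EED), and with a 5% limit (KDM3A), and 0 with the brightest probe set. A 10% limit added 1 underexpressed gene there (SETD7). In NGP over IMR-32 (2 higher, 1 lower), log2(signal + 32) gave 4 higher (KMT5A, SETD1B, KDM1A and KDM2B), leaving out _s_at and _x_at probe sets gave 0 higher, and the brightest probe set gave 0 lower.

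By the 2-fold rule, log2(signal + 32) gave 6 higher and 0 lower in NGP over the Reference, 3 higher in IMR-32 over the Reference and 1 lower in NGP over IMR-32. Those lower in NGP over the Reference (2) numbered 0 with median-centred ratios and 1 with quantile-normalized arrays, without dim probe sets or with the brightest probe set. The gene lower in IMR-32 over the Reference was lost without dim probe sets or with the brightest probe set (0), and 2 were higher in NGP over IMR-32 without _s_at and _x_at probe sets. Apart from what centring and smaller gene sets fix, the cause was not tested.

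Of the single calls, EED in IMR-32 was lost with quantile-normalized arrays (1.86, limit 1.98), with the brightest probe set (0.98) and at 5%, and in NGP over IMR-32 with the brightest probe set (-0.94). KDM3A was lost in both lines with log2(signal + 32) (0.77 in NGP, 0.69 in IMR-32) and without its dim probe set (0.10 and 0.51). KMT5A in NGP over the Reference was lost with the mean over probe sets (1.60, limit 1.82), and without _s_at and _x_at probe sets it was lost over the Reference (0.34, limit 2.05) and over IMR-32 (0.90, limit 2.10). SETD1B passed in NGP over IMR-32 with log2(signal + 32) (1.66, limit 1.08), without dim probe sets (limit 1.66) and at 10%, and was lost in NGP over the Reference at 5% (limit 2.21). KDM2B was called in both NGP comparisons under each alternative that kept its probe set.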
